A study of Mus musculus with 6 samples.

Results

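The insulin-like growth factor (IGF) genes of the mouse skin are described here through 9 members, chosen by symbol from the 32285 genes of the count files: the ligands Igf1 and Igf2, the receptor Igf1r, and the binding proteins Igfbp2, Igfbp3, Igfbp4, Igfbp5, Igfbp6 and Igfbp7. The cells came from dorsal skin of wildtype male FVB mice aged p55-57, whose backs had been shaved and waxed, a depilation that starts a new round of hair growth. Single-cell 3' RNA libraries were made at 0 h, then after 4 and 16 h, and after 2, 4 and 6 d, and each time point was 1 library into which the cells of 2 mice went in equal numbers. No separate untreated skin was included, and the baseline is the 0 h library, whose follicles the study's authors count as quiescent. No other genotype or other strain enters these values, and nothing in the files separates the cells of 1 mouse from those of the other. The level of a gene in a cell type is given as CPM, the gene's unique molecular identifiers (UMIs) per 1000000 UMIs of those cells in a library. Because each time point had 1 library, 2 time points were not tested against each other, and intervals of CPM (95% Poisson) or of shares of cells (95% Clopper-Pearson) cover counting error only.

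IGF1 and IGF2 are secreted ligands that signal through the receptor tyrosine kinase IGF1R, which activates the insulin receptor substrates and the PI3K-AKT pathway to promote growth and survival. IGF binding proteins hold the ligands outside the cell, where they can lengthen the ligands' life, keep them from the receptor or release them once proteases such as pregnancy-associated plasma protein A cut the binding protein. In skin, IGF1 is known as a product of dermal fibroblasts and the dermal papilla that acts on the overlying epithelium and supports hair growth.

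After filtering, 50502 cells remained of 61031 barcodes, with 6520 to 11032 cells a library, and the libraries held 72634390 to 112370376 UMIs in all. Pairs of libraries shared 7 to 33 cell barcodes. Clustering gave 16 cell types, called by their likeness to marker lists: basal and suprabasal interfollicular epidermis (IFE.B, IFE.SB), basal and suprabasal upper hair follicle (uHF.B, uHF.SB), outer bulge (OB1, OB2, OB3), inner bulge (IB), inner root sheath (IRS1, IRS2, IRS3), sebaceous gland (SG), T cells, Langerhans cells, melanocytes and DP/fibroblast-like cells. The 9 members and 36 other genes of the pathway were kept out of the genes used for clustering. IFE.B was the largest type with 16792 cells, OB1 held 4249 and the DP/fibroblast-like cluster 210.

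A pair of these groups needs its make-up stated first. The DP/fibroblast-like cluster held 19, 17, 14, 8, 127 and 25 cells from 0 h to 6 d. The matrix genes Dcn and Lum of its marker list were at 0 UMIs at 0 h, 16 h, 2 d and 6 d. At 4 d they were found in 8 and 6 of the 127 cells, and at 4 h in 1 cell each. The dermal papilla marker Corin reached 258 UMIs at 4 d and 46 at 6 d. Corin was at 0 at 0 h and 16 h. Other listed markers had UMIs in every library, with Crabp1 in 12, 8, 5, 1, 87 and 19 cells. Col3a1 was found in 6, 2, 2, 3, 113 and 20 cells. Col1a1 was at 0 at 16 h and 2 d, and Pdgfra at 2 d. From 0 h to 6 d, 0, 5, 3, 5, 7 and 0 of the cluster's cells carried 2 or more UMIs of the endothelial genes Pecam1, Cdh5, Kdr and Emcn. The IRS2 cluster held 30, 33, 54, 77, 965 and 149 cells from 0 h to 6 d. The inner root sheath keratin Krt28 stood there at 0, 23.9, 10.5, 23.8, 369 and 301 CPM, low before 4 d. Krt35, Mt4, Cux1, Fabp5 and Msx2 of the same marker list were likewise highest at 4 d or 6 d. Cldn10, also listed, was highest at 0 h, at 387, 67.8, 166, 109, 169 and 191 CPM. Lef1 was at 83.9 CPM at 0 h and 94.3 at 4 d, and Hoxc13 at 79.2 and 159.

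Promoter sequences are shown for 2 pairs of binding protein genes. Igfbp2 and Igfbp5 lie tail to tail on chromosome 1 with 5458 bases between them, and their transcripts lay in different cell types. Igfbp3 and Igfbp4, both on chromosome 11, took different courses in OB1 after depilation. Each sequence is the RefSeq stretch of 300 bases around the gene's start (for Igfbp2, 1 of 2 listed starts) in build GRCm38.p6, read 5′ to 3′ on the gene's strand, at chr1:72824230-72824529 (Igfbp2, plus strand), chr1:72874816-72875115 (Igfbp5, minus strand), chr11:7213874-7214173 (Igfbp3, minus strand) and chr11:99040994-99041293 (Igfbp4, plus strand). Capitals mark GC boxes, searched as GGGCGG on both strands, and TATA boxes, searched as TATAAA on both strands. The CCAAT box was searched likewise and overlaps neither.
Igfbp2: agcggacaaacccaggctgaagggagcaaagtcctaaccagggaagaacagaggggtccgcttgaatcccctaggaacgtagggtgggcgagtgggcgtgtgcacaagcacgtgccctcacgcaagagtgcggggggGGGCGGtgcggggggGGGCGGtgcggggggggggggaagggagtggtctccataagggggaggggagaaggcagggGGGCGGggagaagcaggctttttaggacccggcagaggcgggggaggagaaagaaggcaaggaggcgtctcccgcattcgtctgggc
Igfbp5: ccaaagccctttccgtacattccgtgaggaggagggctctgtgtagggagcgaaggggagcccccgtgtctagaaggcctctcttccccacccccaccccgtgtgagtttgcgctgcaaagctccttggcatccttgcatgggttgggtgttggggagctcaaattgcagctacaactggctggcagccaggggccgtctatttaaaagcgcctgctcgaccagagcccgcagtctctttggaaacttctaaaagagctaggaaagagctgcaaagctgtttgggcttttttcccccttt
Igfbp3: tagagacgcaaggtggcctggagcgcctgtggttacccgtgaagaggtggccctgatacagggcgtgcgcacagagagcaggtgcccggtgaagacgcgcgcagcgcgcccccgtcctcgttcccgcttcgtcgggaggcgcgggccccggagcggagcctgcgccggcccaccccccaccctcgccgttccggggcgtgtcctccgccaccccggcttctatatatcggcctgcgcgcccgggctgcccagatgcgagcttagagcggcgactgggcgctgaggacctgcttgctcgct
Igfbp4: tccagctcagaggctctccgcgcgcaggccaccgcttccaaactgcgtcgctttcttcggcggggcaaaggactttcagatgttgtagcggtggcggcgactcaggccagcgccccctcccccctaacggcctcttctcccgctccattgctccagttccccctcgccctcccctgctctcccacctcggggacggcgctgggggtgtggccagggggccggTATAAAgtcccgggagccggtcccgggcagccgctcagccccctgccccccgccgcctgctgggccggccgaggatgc
The Igfbp2 promoter held 3 GC boxes, and the Igfbp4 promoter held 1 TATA box. Neither the Igfbp5 nor the Igfbp3 stretch held any of the 3 motifs. Of 32851 mouse promoters of this length, 35.7% held a GC box, 13.6% held a TATA box and 37.4% held a CCAAT box. The 4 stretches were 67%, 56.3%, 71.7% and 71.3% G or C, in the order Igfbp2, Igfbp5, Igfbp3 and Igfbp4.

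The UMIs of most members lay in 1 or a few cell types. DP/fibroblast-like cells were 0.416% of all cells and held 91.7% of the Igf1 UMIs. SG cells were 3.69% of cells and held 72.8% of the Igfbp2 UMIs, IFE.B held 80.2% of the Igfbp3 UMIs, and OB1 held 60.3% of the Igfbp6 UMIs. Igf1r was spread widely, with 44.4% of its 26451 UMIs in IFE.B and at least 72 UMIs in each of the 16 types.

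**Figure D1:**
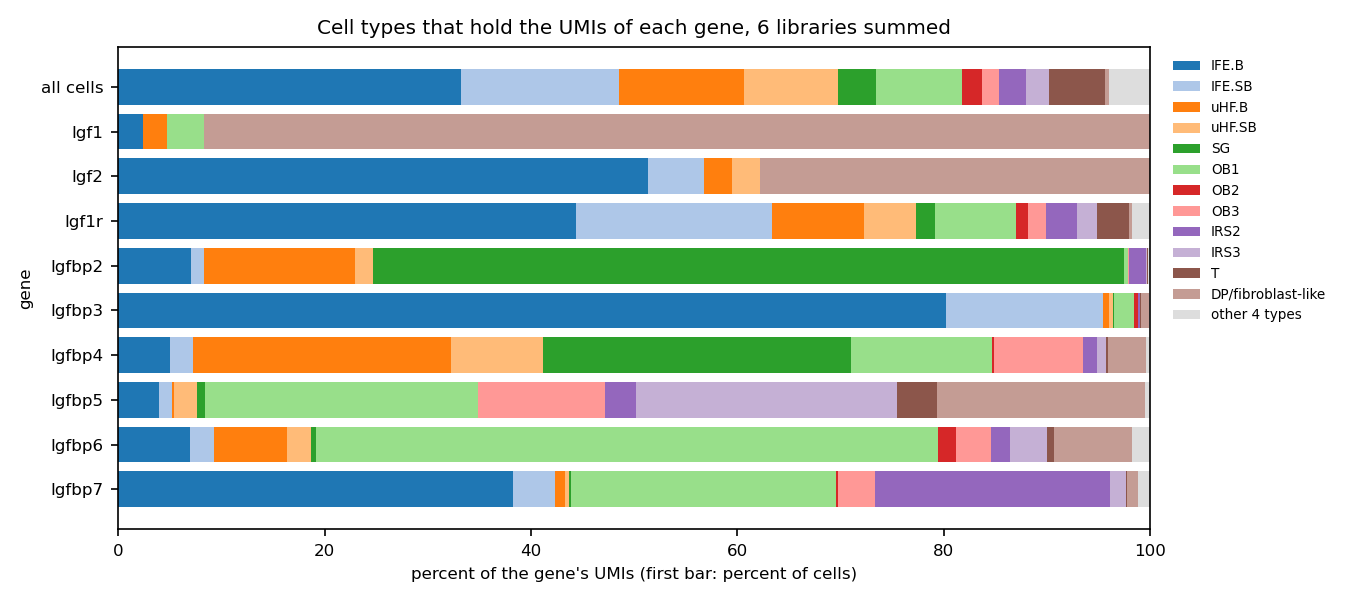
Stacked bars give the percent of each gene's UMIs that lay in each cell type, with the 6 libraries summed, and the first bar gives the percent of all cells. Igf1 lay almost wholly in DP/fibroblast-like cells (91.7%), Igfbp2 mostly in SG (72.8%) and Igfbp3 mostly in IFE.B (80.2%).

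Cell types were compared with edgeR's quasi-likelihood test on UMIs summed per cell type and library, with the library as a block and at least 10 cells in a sum, so that the DP/fibroblast-like cluster entered with 5 libraries and without 2 d, and a difference was called at a Benjamini-Hochberg adjusted p under 0.05 over all 13081 genes tested. Of 90 member-by-contrast pairs in 10 contrasts, 48 were called, 24 higher and 24 lower in the type named first. All genes moved often in these contrasts too, so each count of members is given with the percent of all genes called.

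The ligand Igf1 (mm10 chr10:87858265-87937042, plus strand), the main growth factor of the pathway in adult tissue, was found almost solely in the DP/fibroblast-like cluster. From 0 h to 6 d its level there was 83.6, 21.6, 64.5, 256, 117 and 55.3 CPM, from 4, 1, 3, 9, 53 and 7 UMIs. The 4 d value had the narrowest interval, 87.5 to 153 CPM, and intervals of all the other time points overlapped it. Of the cluster's 77 UMIs, 1 at 16 h, 4 at 2 d and 9 at 4 d lay in endothelial-marked cells. Without those cells, a choice made after seeing the data, the values were 83.6, 30.2, 93.9, 840, 106 and 55.3 CPM, the 2 d value resting on 5 UMIs in 3 cells. Of the 84 Igf1 UMIs in all cells, 3 lay in OB1, 2 in IFE.B and 2 in uHF.B, and the other 12 cell types had none. Over the summed libraries the cluster's 102 CPM was at least 221-fold above the T cells and at least 824-fold above SG, taking 3 UMIs as the floor for a type at 0. Against OB1 the Igf1 difference was called by edgeR (adjusted p = 3.3e-09), but not with DESeq2 (adjusted p = 0.491).

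Igf2 (mm10 chr7:142650766-142666816, minus strand), the second ligand and mainly a fetal growth factor, was barely detected, with 37 UMIs in the whole series. DP/fibroblast-like cells held 14 of them, at 62.7, 0, 43.0, 0, 19.8 and 0 CPM, and IFE.B held 19 UMIs at no more than 0.232 CPM in any library. OB1 had no Igf2 UMI, so the DP/fibroblast-like level of 18.5 CPM over the summed libraries was at least 161-fold higher. That call, too, was lost with DESeq2 (adjusted p = 0.480).

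The receptor Igf1r (mm10 chr7:67952827-68233668, plus strand) was detected in every cell type, and its levels ordered the types. T cells stood at 161, 244, 122, 108, 82.9 and 96.8 CPM from 0 h to 6 d. OB3 was nearly level at 96.2, 97.5, 102, 97.2, 110 and 86.1 CPM. OB1 gave 70.4, 74.7, 96.0, 103, 76.4 and 71.0 CPM. At the other end of the order SG gave 26.0, 24.6, 25.1, 17.2, 19.7 and 12.2 CPM, below every one of these values. SG was below uHF.B by 1.36 ± 0.19 (log2 difference ± standard error, adjusted p = 5.4e-09), and these lipid-making cells had the lowest median of the keratinocyte types. OB1 was above uHF.B by 0.56 ± 0.17 (adjusted p = 0.012), though not past the threshold without the 2 d library (adjusted p = 0.0907) or the 6 d library (adjusted p = 0.0544). Neighbours at the top of the order did not differ beyond their spread: T cells against DP/fibroblast-like cells gave 0.42 ± 0.24 (adjusted p = 0.163), and these against OB3 0.03 ± 0.25 (adjusted p = 0.993).

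Igf1r was called lower in both suprabasal layers than in the basal layer beneath. IFE.SB was below IFE.B by a log2 difference of -0.55 ± 0.17 (adjusted p = 0.0057), a call that was lost without the 4 h library (adjusted p = 0.0572). The difference of uHF.SB from uHF.B, -0.43 (adjusted p = 0.044), was lost whichever library was left out (adjusted p 0.0667 to 0.116). In IFE.B itself the level was 69.9, 119, 73.7, 63.8, 67.4 and 57.9 CPM, and the 4 h interval of 115 to 123 CPM lay above those of the other 5 time points. Cells were also thinned to 2000 UMIs, and cells too shallow for this were left out of every thinned share. Of thinned IFE.B cells, 20.5% at 4 h had an Igf1r UMI against 10.6% to 13.9% at the other times. Without thinning the share was 62.2% at 4 h against 32.4% to 52.9%. T cells were also highest at 4 h, at 39.6% of thinned cells. Thinning left out many T cells, 146 of 391 at 4 h, 397 of 819 at 2 d and 290 of 753 at 4 d. Thinned T cell shares therefore describe the deeper T cells only.

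**Figure D2:**
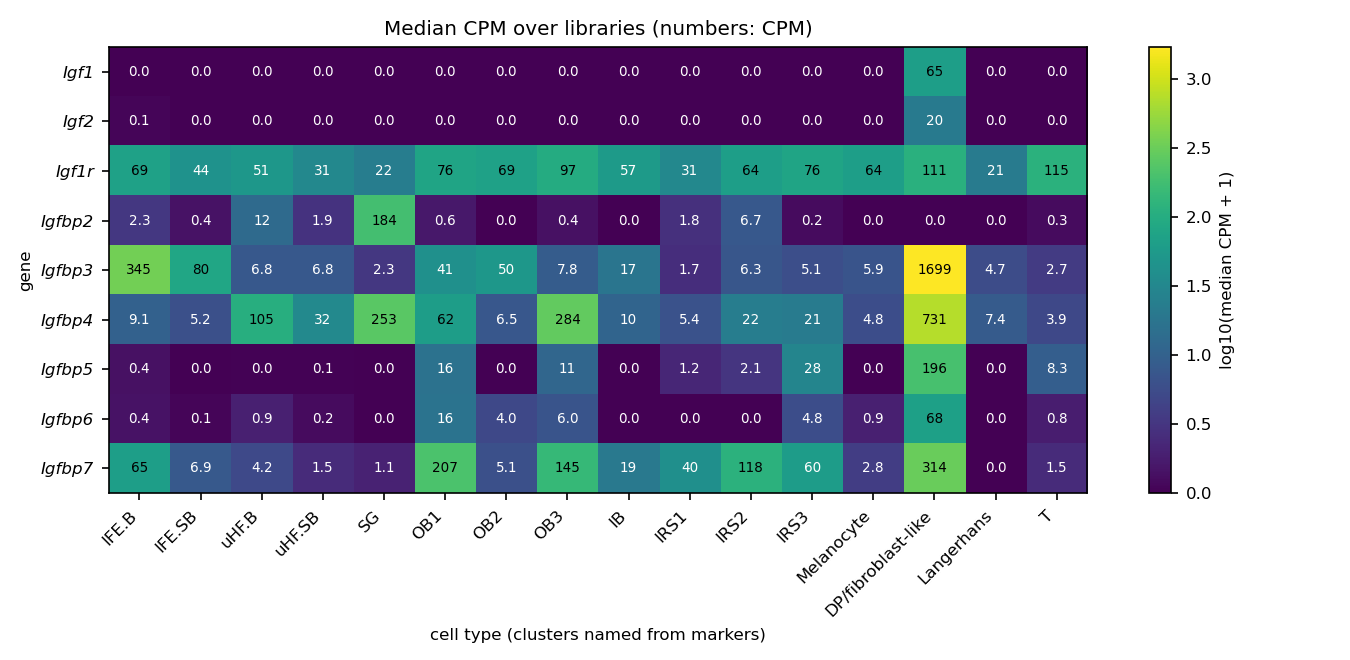
Colours give log10(median CPM + 1) of each gene in each cell type over the libraries with at least 10 of its cells, and the numbers give the median CPM. Igfbp2 peaked in SG at 184 CPM, Igfbp3 stood at 345 CPM in IFE.B, and Igf1r lay between 21.2 and 115 CPM in all 16 types.

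Igfbp2 (mm10 chr1:72824503-72852474, plus strand), a binding protein with a cell-attachment motif, was highest in the sebaceous gland. SG cells held 193, 89.6, 175, 161, 218 and 226 CPM from 0 h to 6 d, with only 13 SG cells at 0 h. The uHF.B cells, next in order, held 2.59, 5.24, 15.3, 8.68, 22.9 and 38.2 CPM, and no uHF.B value reached the lowest SG value. SG exceeded uHF.B by 3.74 ± 0.32 on the log2 scale (adjusted p = 1.5e-16), and uHF.B exceeded IRS2 by 1.48 ± 0.41 (adjusted p = 0.00405). Thinned to 2000 UMIs, 21.6% to 38.5% of SG cells had an Igfbp2 UMI against at most 0.474% of T cells (61.2% to 81.3% against at most 0.488% without thinning). Median depths were 7948 to 21619 UMIs in SG and 2020 to 2702 in T cells. OB1 was lower than uHF.B by 4.36 ± 0.48 (adjusted p = 1e-11), with 22 UMIs in its 4249 cells.

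In uHF.B the Igfbp2 levels at 4 d and 6 d were above all earlier ones, and the 0 h interval of 1.56 to 4.04 CPM did not overlap the 6 d interval of 34.5 to 42.1 CPM. The larger uHF.B cluster (cluster 0) went from 1.58 CPM at 0 h to 17.3 CPM at 4 d and 45.5 CPM at 6 d. In this cluster, too, the levels at 4 d and 6 d were above all earlier ones. The smaller cluster (cluster 2) was at 6.06, 17.7, 30.3, 9.89, 28.5 and 28.1 CPM from 0 h to 6 d. Its highest level was at 16 h, so 4 d and 6 d were not above all earlier libraries there. The time course test in uHF.B gave an unadjusted p of 0.0162 for Igfbp2 and did not pass after adjustment.

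Igfbp3 (mm10 chr11:7206086-7213923, minus strand), the main carrier of IGFs in blood and a keratinocyte product, was highest among the large cell types in IFE.B. Its level there was 292, 255, 325, 366, 556 and 473 CPM from 0 h to 6 d, and the libraries at 4 d and 6 d lay above the other 4 with intervals that did not overlap theirs. Thinned to 2000 UMIs, 28.7% to 42.8% of IFE.B cells had an Igfbp3 UMI against 0% to 1.68% of T cells (47.8% to 59.4% against 0.467% to 1.61% without thinning). IFE.SB gave 87.1, 46.2, 68.7, 112, 177 and 73.1 CPM, below IFE.B in every library. The difference between IFE.SB and IFE.B was -1.79 ± 0.54 on the log2 scale (adjusted p = 0.005). The upper follicle stood apart from the epidermis it joins, since uHF.B held 5.04, 24.1, 7.08, 6.44, 4.56 and 7.56 CPM. Its highest value was at 4 h, as in OB1, OB2 and OB3.

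Igfbp3 in OB1 was highest early in the course. The level was 97.7 CPM at 0 h and 267 CPM at 4 h, then 43.6, 13.8, 12.6 and 38.3 CPM from 16 h to 6 d. The 4 h interval of 246 to 291 CPM lay above that of every other library. OB2 gave 49.6, 176, 61.1, 12.4, 50.2 and 3.81 CPM and OB3 gave 22.6, 60.5, 6.69, 8.84, 4.96 and 5.42 CPM, with 4 h again the highest in both. In thinned OB1 cells the share with an Igfbp3 UMI was 18.2%, 27.4%, 6.26%, 2%, 2.70% and 5.67% (28.8%, 37.2%, 17.7%, 5.58%, 6.15% and 11.1% unthinned), and the T cell share stayed at or under 1.68%. OB1 was below IFE.B by 3.21 ± 0.60 (log2, adjusted p = 7.8e-06) and above uHF.B by 2.66 ± 0.60 (adjusted p = 0.0003). OB1 and OB2 were not told apart, at 0.23 ± 0.60 (adjusted p = 0.87).

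OB1 was made of a pair of clusters whose shares changed with time, the smaller (cluster 6) holding 264 of 281 cells at 0 h and the larger (cluster 1) 1482 of 1643 cells at 4 d. In the larger cluster Igfbp3 was at 10.2, 353, 51.8, 13.2, 9.5 and 22.4 CPM, with 17 cells at 0 h. In the smaller cluster it was at 103, 145, 31.9, 15.9, 64.1 and 89.8 CPM. Both clusters had their highest level at 4 h.

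The DP/fibroblast-like cluster had the widest range of Igfbp3 of any type, at 6187, 1877, 1699, 114, 83.7 and 15.8 CPM. All of its 19 cells at 0 h had an Igfbp3 UMI, against 23 of 127 at 4 d and 2 of 25 at 6 d. With the endothelial-marked cells left out, the values were 6187, 2630, 3709, 672, 84.2 and 15.8 CPM, and 3 cells remained at 2 d. The early and late cells of this cluster also differed in Corin, as given above, and the part of this difference in the Igfbp3 range was not tested. In the 5 libraries that entered the test, without the 8 cells of 2 d, the cluster was above OB1 but not told apart from IFE.B, at 0.64 ± 0.63 (log2, adjusted p = 0.464).

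Igfbp4 (mm10 chr11:99041244-99054392, plus strand), a binding protein that restrains IGF until pregnancy-associated plasma protein A cleaves it, was a follicle and sebaceous transcript. OB3 held 235, 145, 199, 334, 563 and 552 CPM from 0 h to 6 d. SG held 193, 128, 130, 314, 503 and 409 CPM and uHF.B 29.1, 71.6, 48.3, 138, 248 and 168 CPM. OB1 held 27.3, 30.6, 25.1, 94.1, 166 and 163 CPM. In all 4 types the libraries at 2 d, 4 d and 6 d lay above those at 0 h, 4 h and 16 h. DP/fibroblast-like cells reached the highest level of all, at 125, 173, 731, 541, 1538 and 860.5 CPM. Without the endothelial-marked cells these were 125, 181, 798, 840, 1615 and 860.5 CPM.

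The uHF.B type joined a pair of clusters that differed in Igfbp4 and whose shares changed, cluster 2 holding 244 of 949 cells at 0 h and 722 of 1288 at 4 d. Cluster 2 was at 112, 222, 104, 329, 443 and 305 CPM and cluster 0 at 5.1, 8.33, 8.54, 30.8, 49.1 and 69.0 CPM, and in both the libraries from 2 d on lay above the earlier ones. In OB1 the larger cluster gave 40.9, 16.5, 21.9, 99.2, 168 and 166 CPM and the smaller 26.4, 50.8, 29.6, 74.4, 123 and 153 CPM, again higher from 2 d on in both.

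Igfbp4 separated the outer bulge types. OB1 was below OB3 by 2.22 ± 0.25 on the log2 scale (adjusted p = 1.2e-10) and above OB2 by 2.79 ± 0.33 (adjusted p = 7.9e-10). OB2 held no more than 22.8 CPM in any library. At the top of the order, DP/fibroblast-like cells against OB3 (0.51 ± 0.28, adjusted p = 0.186) and OB3 against SG (0.22 ± 0.24, adjusted p = 0.515) did not differ beyond their spread. SG was above uHF.B by 1.24 ± 0.24 (adjusted p = 1.1e-05). In thinned OB1 cells the share with an Igfbp4 UMI was 4.98%, 4.73%, 3.58%, 16%, 26.7% and 25.3% (10.3%, 8.17%, 12.4%, 38.6%, 49.4% and 45.9% unthinned), against at most 1.66% of thinned T cells.

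Igfbp5 (mm10 chr1:72857932-72874884, minus strand), a matrix-bound binding protein, was sparse, with 1411 UMIs in the series. OB1 held 373 of them, at 19.7, 7.28, 23.2, 11.6, 5.94 and 25.5 CPM from 0 h to 6 d. Its smaller cluster gave 21.0, 2.36, 38.0, 34.5, 33.6 and 51.0 CPM and its larger cluster 0, 10.7, 12.8, 5.55, 4.26 and 17.6 CPM, so the low OB1 value at 4 d was not seen within the smaller cluster. IRS3, a type nearly absent before 2 d, gave 2.13, 28.2 and 87.6 CPM at 2 d, 4 d and 6 d. The DP/fibroblast-like level was 0, 43.2, 796, 0, 196 and 1239 CPM, where 13 of 25 cells at 6 d had an Igfbp5 UMI and the 37 UMIs at 16 h all came from 1 endothelial-marked cell. Without the endothelial-marked cells the level was 0, 30.2, 0, 0, 214 and 1239 CPM. Against OB1 the DP/fibroblast-like cells, the endothelial-marked ones included, were higher by 3.90 ± 0.62 on the log2 scale (adjusted p = 7.8e-07). In OB3 the level was 11.3, 10.1, 6.69, 1.77, 55.4 and 56.6 CPM, higher at 4 d and 6 d than before, but OB1 and OB3 did not differ over all libraries (-0.48 ± 0.63, adjusted p = 0.843).

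The neighbouring gene Igfbp2 had a different set of cell types. OB2, with 0 Igfbp5 UMIs in 949 cells, was at least 20.1-fold below the 14.3 CPM of OB1 over the summed libraries. The uHF.B cells had 4 Igfbp5 UMIs beside their 855 Igfbp2 UMIs, and SG had 11 beside 4270. OB1 had 22 Igfbp2 UMIs beside 373 of Igfbp5. T cells, which are not epithelial cells, gave 4.69 to 21.0 CPM of Igfbp5. The thinned share was 1.08% to 3.91% in T cells and 1.18% to 3.72% in OB1 (1.20% to 3.74% and 1.29% to 9.25% unthinned). The thinned ranges of OB1 and T cells thus overlapped.

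Igfbp6 (mm10 chr15:102144362-102149511, plus strand), a binding protein with a preference for IGF2, was a rare transcript whose UMIs lay mostly in OB1. The OB1 level was 62.8, 17.0, 38.3, 11, 5.57 and 15.0 CPM from 0 h to 6 d, highest at 0 h and lowest at 4 d. The same order held in the smaller cluster, at 64.9, 30.7, 56.2, 26.6, 19.2 and 29.7 CPM, and in the larger one, at 30.7, 7.41, 25.7, 6.94, 4.75 and 10.4 CPM. In the larger cluster the 0 h value rested on 3 UMIs in 17 cells. Its interval of 6.33 to 89.8 CPM overlapped that of 16 h, 18.9 to 34.0 CPM. In thinned OB1 cells the share with an Igfbp6 UMI was 11%, 2.36%, 6.93%, 2%, 1.26% and 3.37% (21.7%, 6.67%, 18.8%, 7.17%, 3.53% and 6.22% unthinned), against at most 0.559% of thinned T cells. OB3 stayed between 3.01 and 8.49 CPM and OB2 between 0 and 4.96 CPM. OB1 was above IFE.B by 5.68 ± 0.53 (log2, adjusted p = 2.4e-15) and above OB3 by 2.05 ± 0.56 (adjusted p = 0.0144), the latter not past the threshold with DESeq2 (adjusted p = 0.0894) or without the 0 h (adjusted p = 0.0917) or 16 h library (adjusted p = 0.0697). DP/fibroblast-like cells gave 251, 237, 0, 0, 68.3 and 0 CPM of Igfbp6, from 12, 11, 0, 0, 31 and 0 UMIs. The 31 UMIs at 4 d lay in only 6 of the 127 cells, those at 0 h in 6 of 19 and those at 4 h in 7 of 17. In the edgeR test these cells were above OB1 by 1.55 ± 0.56 (log2, adjusted p = 0.0295).

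Igfbp7 (mm10 chr5:77349240-77408041, minus strand), a low-affinity IGF binder also found in basement membranes, had its highest median CPM in DP/fibroblast-like cells. Their level was 314, 518, 409, 626, 260 and 308 CPM from 0 h to 6 d, and 21 of the 22 UMIs at 2 d lay in endothelial-marked cells. Igfbp7 was also found in OB1, OB3, IRS2 and the basal epidermis, and hardly in OB2, where 949 cells held 37 UMIs. OB1 held 238, 112, 93.8, 255, 283 and 177 CPM from 0 h to 6 d, lowest at 4 h and 16 h. OB3 held 294, 114, 124, 134, 188 and 156 CPM and IFE.B 59.3, 25, 40.0, 69.8, 100 and 91.1 CPM, each lowest at 4 h. SG, in contrast, held no more than 2.94 CPM in any library. The gene overlaps Polr2b on the opposite strand, and reads of the overlap cannot be told apart if the counting did not use strand. OB1 exceeded IFE.B by 1.34 ± 0.37 (log2, adjusted p = 0.0026), uHF.B by 5.35 ± 0.46 (adjusted p = 1.3e-15) and OB2 by 4.44 ± 0.54 (adjusted p = 2e-09). OB1, OB3, IRS2 and DP/fibroblast-like cells were not told apart, with OB1 and OB3 at 0.18 ± 0.39 (adjusted p = 0.92). In the larger OB1 cluster the level was 0, 51.9, 41.7, 282, 285 and 177 CPM, with no UMI in its 17 cells at 0 h. There the 4 h and 16 h values were below those from 2 d on, but no fall from 0 h was seen. In the smaller cluster the level was 254, 198, 168, 151, 264 and 178 CPM, lowest at 2 d.

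**Figure D3:**
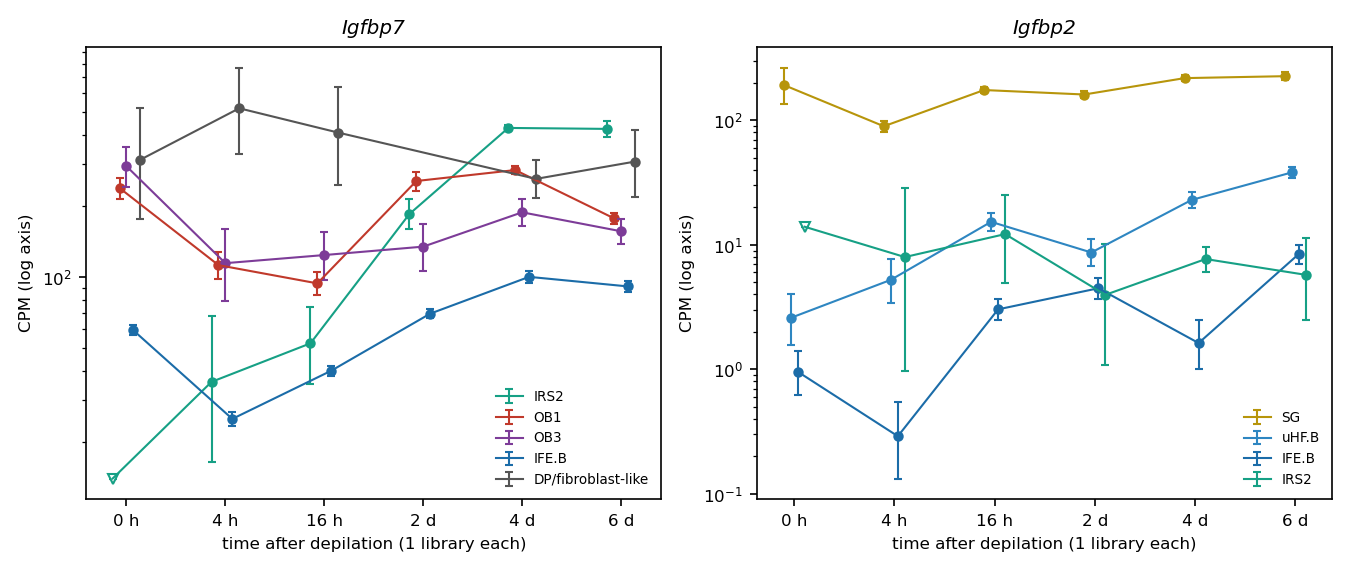
Points give the CPM of Igfbp7 and Igfbp2 on a log axis in each library from 0 h to 6 d, a line for each cell type, with 95% Poisson bars and an open triangle at the 3-UMI floor. Igfbp7 in IRS2 went from 35.9 CPM at 4 h to 428 at 4 d, and Igfbp2 was at 89.6 CPM or more in SG throughout.

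Against this spread of levels, the members' calls per contrast were as follows. OB1 differed from IFE.B in 7 of 9 members, 4 higher (Igfbp4, Igfbp5, Igfbp6, Igfbp7) and 3 lower, where 36.1% of all genes were called. OB1 differed from uHF.B in 7 members, 5 higher and 2 lower (25% of all genes), from OB2 in 4, all higher (15.2%), and from OB3 in 2, 1 each way (4.88%). IFE.SB was lower than IFE.B in 6 members (42.3%) and uHF.SB lower than uHF.B in 3 (37.4%), and no member was called higher in a suprabasal layer. SG differed from uHF.B in 5 members, 2 higher and 3 lower (36.9%), and melanocytes from IFE.B in 3, 1 higher and 2 lower (41.8%). DP/fibroblast-like cells were above OB1 in 6 members (26.9%), and IRS2 differed from OB1 in 5, 1 higher and 4 lower (18.6%). The Igf2 calls against IFE.B, in OB1 and IFE.SB, rested on 0 and 2 UMIs in the lower type and 19 in IFE.B. Igfbp2 was lower in OB1 than in IFE.B but not without the 6 d library (adjusted p = 0.059) or with DESeq2 (adjusted p = 0.0971).

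For the neighbouring types in the orders above, the percent of all genes called was 41.7% for DP/fibroblast-like against T cells, 24% against OB3, 38.7% against IFE.B and 26.5% against IRS3. It was 16.4% for IRS3 against OB1, 24.6% for IRS2 against uHF.B, 26.9% for IRS2 against OB3, 40.1% for IFE.B against IRS2, 41.9% for IFE.SB against OB2 and 38.5% for OB3 against SG.

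The course after depilation was tested in each of 11 cell types by a spline of the hours over the 6 libraries. Of 44 member-by-type pairs, 12 had an unadjusted p under 0.05 and 1 passed after adjustment. That was Igfbp7 in IRS2, at 0, 35.9, 52.3, 185, 428 and 424 CPM from 0 h to 6 d, whose linear part over the course was 4.76 on the log2 scale (adjusted p = 0.00792). At 0 h, 30 IRS2 cells held no Igfbp7 UMI, which allows up to 14 CPM, and Krt28 in this cluster was also highest at 4 d and 6 d. At a coarser follicle clustering (resolution 0.2) the IRS2 cluster held 1, 0, 2, 15, 1147 and 191 cells, most early cells fell into other clusters, and the test could not be fitted. Whether Igfbp7 changed within like cells or the cells of the cluster changed was not tested. In thinned IRS2 cells the share with an Igfbp7 UMI went from 0% and 3.03% at 0 h and 4 h to 51% and 41.8% at 4 d and 6 d (0% and 12.1% to 83.3% and 68.5% unthinned). In IRS2, 4.22% of all genes were called on this scale.

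In the other types the background was low on the scale of hours, with 0% of genes called in IFE.B, IFE.SB, uHF.B, uHF.SB, OB1, OB2 and OB3, 3.8% in melanocytes, 0.0492% in Langerhans cells and 0.0514% in T cells. In those 7 types with 0%, the genes at an unadjusted p under 0.05 numbered from 86 of 12936 in IFE.B to 978 of 10696 in OB1. On a scale of log2(hours + 1), which spreads out the early libraries, 6 member pairs passed. In OB1, where 15% of all genes were called on that scale, these were Igfbp3, with a linear part of -3.61 (log2, adjusted p = 0.000332; 0.224 on hours), and Igfbp4, with 2.58 (adjusted p = 0.00727; 0.227 on hours). In OB3, where 9.05% were called, they were Igfbp3 at -3.33 (adjusted p = 0.027), Igfbp4 at 1.40 (adjusted p = 0.00929) and Igfbp5 at 2.17 (adjusted p = 0.029). In IRS2 (6.86% called) Igfbp7 passed again, at 6.69 (adjusted p = 0.00247). Igfbp6 in OB1 did not pass on hours, with a linear part of -2.43 (adjusted p = 0.376).

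Hair follicle stem cells of the outer bulge start dividing after depilation, and cycling OB1 cells, those with 2 or more UMIs of 10 proliferation genes once thinned, numbered 21, 12, 34, 82, 827 and 277 from 0 h to 6 d. Compared with non-cycling OB1 cells of the same libraries, 3 of the 6 members tested were lower in cycling cells and none was higher, where 17.9% of all genes were called. Igfbp3 was at 101, 263, 46.0, 7.7, 15.8 and 47.5 CPM in non-cycling cells and at 60.4, 237, 20.5, 21.7, 10.1 and 18.8 CPM in cycling cells. It was lower in 5 of 6 libraries, with a log2 difference of -0.81 ± 0.20 (adjusted p = 0.0021). Igfbp6 was at 63.7, 17.0, 39.1, 14.5, 8.82 and 15.8 CPM in non-cycling and 51.8, 36.4, 30.8, 6.38, 3.51 and 13.3 CPM in cycling cells, at -0.70 ± 0.23 (adjusted p = 0.0238). Igfbp5 differed by -1.62 ± 0.46 (adjusted p = 0.0327), though the 12 cycling cells at 4 h gave 91.0 CPM against 5.2 CPM, from 5 UMIs.

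These 3 calls changed with the libraries and the tool. Without the 6 d library no member was called (Igfbp3 adjusted p = 0.184), without the 4 d library 1 was, and DESeq2 called none. With any 1 library left out the log2 differences stayed below 0, at -0.998 to -0.51 for Igfbp3, -1.83 to -1.13 for Igfbp5 and -0.86 to -0.46 for Igfbp6, and DESeq2 gave -0.59, -1.13 and -0.64. In the larger OB1 cluster alone, a choice made after seeing the data, Igfbp3 was not called (adjusted p = 0.164). Igfbp5 and Igfbp6 also differed between the OB1 clusters. At 4 d Igfbp5 was at 4.26 CPM in the larger and 33.6 CPM in the smaller cluster, and Igfbp6 at 4.75 and 19.2 CPM. The part of the cluster make-up in the differences between cycling and non-cycling cells was not tested. Igfbp7 was not called over both clusters, at 0.17 ± 0.19 (adjusted p = 0.615). It stood at 211, 245 and 145 CPM in non-cycling and at 313, 311 and 248 CPM in cycling cells from 2 d to 6 d, and below the non-cycling level at 0 h and 4 h. Igfbp4 (-0.04, adjusted p = 0.905) and Igf1r (-0.25, adjusted p = 0.281) were not called either.

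**Figure D4:**
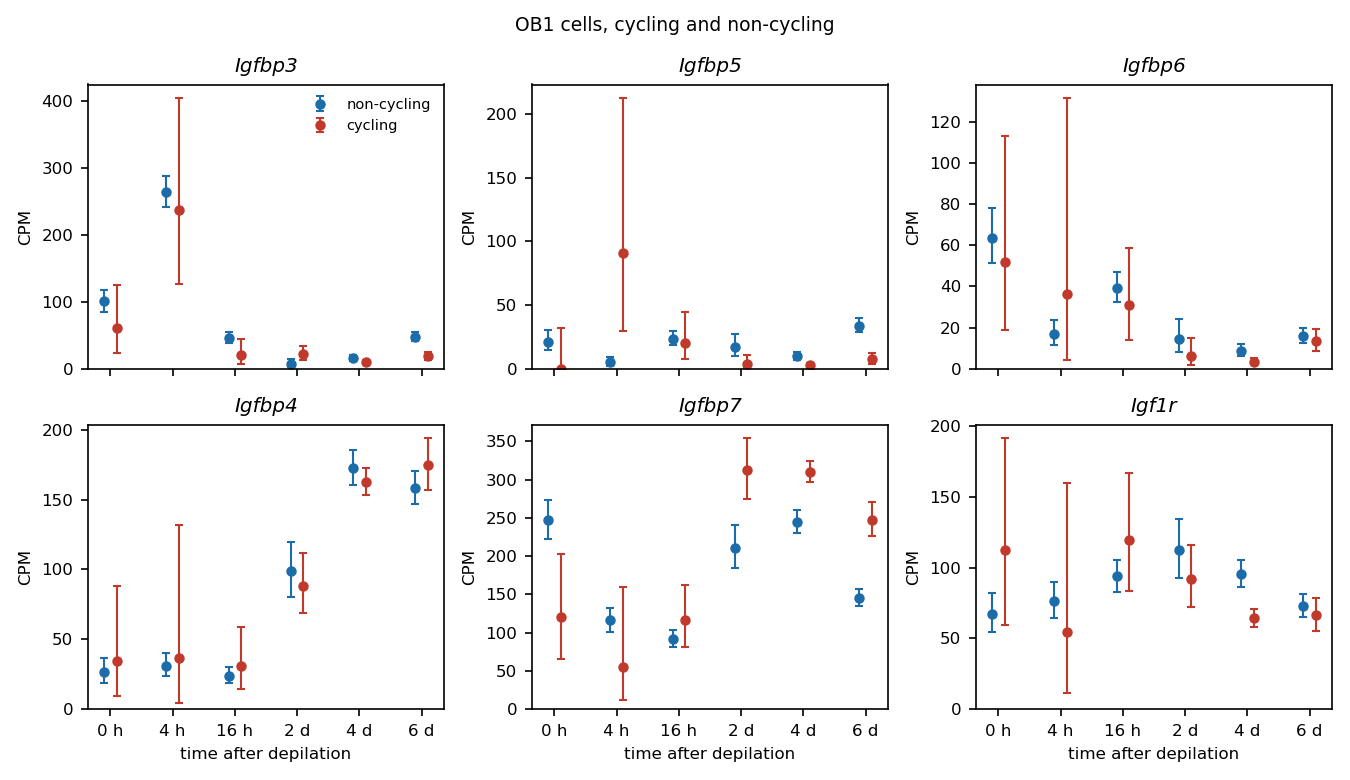
Each panel gives 1 member's CPM in non-cycling and cycling OB1 cells of the 6 libraries, with 95% Poisson bars for counting error only. Igfbp3 in cycling cells was lower in 5 of 6 libraries and Igfbp7 was higher in cycling cells at 2 d, 4 d and 6 d, without passing the test.

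The rest of the pathway was followed through 36 genes for other receptors, substrates, proteases, adaptors and effectors, of which 29 could be tested between cell types. Of 290 gene-by-contrast pairs, 86 were called. OB1 was higher than IFE.B in 8 of the 29 genes and lower in 2, a share close to the 36.1% of all genes called in this contrast. Grb14, an adaptor that dampens insulin and IGF receptor signalling, was higher by 5.85 ± 0.36 on the log2 scale (adjusted p = 3.2e-24). Pappa, the protease that cuts IGFBP4, was higher by 6.57 ± 0.47 (adjusted p = 4.5e-20). Pappa was at 4.44, 3.40, 11.3, 35.8, 63.6 and 96.7 CPM in OB1 from 0 h to 6 d, and Grb14 at 12.7, 0.485, 10.4, 58.9, 114 and 76.4 CPM. Both were highest in the libraries where Igfbp4 was highest in OB1, that is from 2 d to 6 d. Pappa was the one pathway gene called between OB1 and OB3, at 3.27 ± 0.53 (adjusted p = 4.9e-06), where 4.88% of all genes were called.

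In SG, which held the most Igfbp2, the receptor substrate Irs1 was above uHF.B by 3.43 ± 0.35 (log2, adjusted p = 1.8e-13), and the protease Adamts1 was below it by 4.60 ± 0.51 (adjusted p = 9.6e-12), among 5 genes higher and 6 lower (36.9% of all genes called). Melanocytes differed from IFE.B in 13 genes higher and 4 lower (41.8% of all genes called). Among these were Igf2r, the receptor that clears IGF2, at 2.36 ± 0.24 (adjusted p = 8e-14), the signalling inhibitor Socs2 at 5.11 ± 0.56 (adjusted p = 1.4e-12) and the adaptor Grb10 at 5.75 ± 0.63 (adjusted p = 4.6e-11). Ide, which degrades insulin and can cut IGF2, was higher in IFE.SB than in IFE.B by 2.16 ± 0.22 and in uHF.SB than in uHF.B by 2.19 ± 0.23, among 4 genes higher and 4 lower in each of these contrasts (42.3% and 37.4% of all genes called). The counts higher and lower, with the percent of all genes called, were 7 and 3 for OB1 against uHF.B (25%), 3 and 3 against OB2 (15.2%), 6 and 2 for DP/fibroblast-like cells against OB1 (26.9%), and 2 and 5 for IRS2 against OB1 (18.6%). These counts single out nothing particular to the pathway.

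Over time 2 of 209 pathway pairs passed on the scale of hours, Adamts1 and Htra1 in IRS2, both falling, and 10 passed on log2(hours + 1), with Grb14 (4.16, adjusted p = 0.000603) and Pappa (4.58, adjusted p = 0.000274) in OB1 among them. Between cycling and non-cycling OB1 cells 5 of 23 pathway genes were called, where 17.9% of all genes were. Irs1 was higher by 0.71 (log2) in cycling cells, and Pappa was lower by 0.71, Irs2 by 0.87, Foxo3 by 0.72 and Pik3r1 by 0.59. Htra1, Irs2, Foxo3 and Pik3r1 are named here after their values were seen.

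For each member that reached a median of 50 CPM in a cell type, the genes of most similar pattern over the 86 cell type and library sums were ranked by the Pearson correlation of log2(CPM + 1). These sums share libraries and depth, and the values are a description. Igf1 was most like Lepr (r = 0.985), Zic1 (0.984) and Lsamp (0.982), which, like it, were read mainly in 1 small cluster. Igfbp2 was most like Mpc2 (0.825), Acacb (0.812) and Gm35986 (0.812), of which Gm35986 was also a leading gene of the SG cluster. Igfbp3 was most like Marveld1 (0.689), Exoc6b (0.686) and Nrn1 (0.654), and Igfbp4 like Lbp (0.851), Plekhh2 (0.708) and Megf6 (0.706). Igfbp5 was most like 6330403K07Rik (0.709), Fstl1 (0.707) and 3010001F23Rik (0.678). Igfbp6 was most like the collagens Col6a2 (0.727), Col6a1 (0.675) and Col1a1 (0.664), and Igfbp7 like Bmp1 (0.707), Arhgef17 (0.699) and the basement membrane collagen Col4a2 (0.697). Igf1r was most like Ski (0.733), Igf2r (0.701) and Gem (0.694).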

How the data were processed

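Per the labels, dorsal skin cells were profiled with a 10x Genomics 3' kit. The submitters' processing notes name Cell Ranger 6.1.2 and mm10. The authors deposited UMI counts per gene and barcode, not normalised. No sample columns were left unused (0).

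Barcodes with 500 to 7000 genes and at most 10% mitochondrial UMIs were kept. Scrublet scores set doublets at 0.8% per 1000 barcodes (4675 removed). Cells were integrated and clustered with Seurat 5.3.0, first all skin cells and then the follicle cells, without the members, the pathway list and cell cycle genes. Clusters were named from marker lists. UMIs were summed per cell type and library, for types with at least 10 cells, and tested with edgeR 4.0.16 (TMM, filterByExpr, quasi-likelihood, adjustment over all genes tested), with the library as a block between cell types and a spline of hours within a type. The spline has 3 degrees of freedom on 6 libraries, so the spread it is tested against is not one between replicates, and no p compares mice. All 9 members are named. Of the pathway list, the 8 genes with the smallest adjusted p are named with values. For each member at a median of 50 CPM or more in a type, the 3 genes most like it are named. The members and lists were chosen with earlier results of these data known. Alternatives included DESeq2 1.42.0, other time scales, filters, clusterings and each library left out. Gene positions and overlaps came from mm10 annotation. Igfbp7 overlaps Polr2b on the other strand, and whether the counting used strand is not given in the sources used here.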

Additional observations from a re-analysis of the deposited data

How the results depend on the processing

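Between cell types, 48 member-by-contrast pairs were called, and 39 to 49 under every alternative run, with 40 by DESeq2 and 39 to 43 when a library was left out. Of the 48, 32 kept their call in all other settings and 16 lost it in at least 1. Over time, 1 pair was called on hours, 6 on log2(hours + 1), 3 on the rank of the time point, 4 by DESeq2, 2 without the count filter and 0 at a follicle clustering resolution of 0.2, where IRS2 had too few cells in a library to be tested. Leaving out a library gave 1 to 7 pairs, with 6 without the 0 h library and 7 without the 4 h library. Between cycling and non-cycling OB1 cells, 3 members were called, 0 by DESeq2, 1 where a single UMI made a cell cycling, and 0 to 3 with a library left out (1 without the 4 d library and 0 without the 6 d library). The Igfbp4 difference, -0.04, ranged from -0.0793 to 0.00558 with a library left out, the latter without the 2 d library, and was 0.16 at a single UMI, none called. The causes of these shifts were not tested.

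Depth limits the sparse genes. Igf1, with 84 UMIs, and Igf2, with 37, cannot be followed over time, DP/fibroblast-like values rest on 8 to 127 cells a library, and a value at 0 UMIs says only that the level was under the floor of 3 UMIs. With 1 library a time point, changes between time points carry no replicate error.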
